A study of Mus musculus with 12 samples.

Results

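The genes described are the 10 that make up the core nuclear-encoded machinery for copying, transcribing and stabilizing mitochondrial DNA (mtDNA) products: Polrmt, Tfam, Tfb2m, Tefm, Tfb1m, Polg, Twnk, Ssbp1, Lrpprc and Slirp. They were taken by gene name from a table of 17752 genes, all 10 were found in it, and all 10 were among the 12744 genes tested. Expression was measured by RNA-seq in a fast-twitch hind-limb muscle, the extensor digitorum longus (EDL), of male mice. The 12 libraries formed 4 groups of 3: labelled Ctrl and Sedentary, labelled Nrip1KO and Sedentary, labelled Ctrl and Trained, and labelled Nrip1KO and Trained. Nrip1KO stands for strNrip1-/- mice, in which Cre recombinase under the muscle creatine kinase promoter, active in heart and skeletal muscle, deletes a floxed Nrip1 allele. Ctrl stands for WT control mice. Sedentary housing or voluntary wheel training began at 8 weeks of age in every group, and the study excluded mice that did not run. Nrip1 encodes RIP140, a corepressor of nuclear receptors that is known to restrain oxidative genes in muscle. The design crosses this deletion with training, to compare expression between genotypes in each training state.

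Levels are in FPKM (fragments per kilobase of transcript per 1e6 fragments), a level per length. From the spacing of low values, a gene of 1 kb at 1 FPKM rested on an estimated 20.02 to 28.9 fragments, depending on the library. Nrip1 went against the genotype labels: its level was 2.53 to 4.76 FPKM in the 6 libraries labelled Ctrl and 14.9 to 20.7 FPKM in the 6 labelled Nrip1KO. Each genotype is therefore given as labelled, and the direction of every genotype difference rests on these labels. The level is for the whole gene, and levels of single exons were not analysed here. The 5 skeletal muscle fiber markers were Ckm, Acta1, Myh4, Tnnt3 and Pvalb, a list that includes genes of fast fibers such as Myh4. They summed to 63122 to 100143 FPKM, and none was at 0 in any library. The 5 adipocyte markers summed to 12.3 to 25.3 FPKM in labelled Ctrl sedentary libraries, 42.6 to 115 in labelled Nrip1KO sedentary, 35.04 to 75.9 in labelled Ctrl trained and 43.7 to 113 in labelled Nrip1KO trained libraries, and their part in the results was not tested. The 5 endothelial markers summed to 66.1 to 73.3 FPKM in labelled Ctrl sedentary and 65.2 to 75.5 in labelled Ctrl trained libraries, and to 74.8 to 84.6 and 82.7 to 85.1 in labelled Nrip1KO ones, without overlap within either training state. The muscle fiber sum was also separate, 82847 to 90520 against 63122 to 81545 FPKM in sedentary and 83215 to 100143 against 70440 to 74635 in trained libraries, lower in labelled Nrip1KO. The part of these differences in the results was not tested. Sums of 5 other marker lists overlapped between the labelled genotypes in at least 1 training state. In whole muscle, fewer cells of a type, less RNA per cell and another mix of fiber types cannot be told apart.

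Mitochondria keep a small circular genome that encodes core subunits of the respiratory chain, and its products are made by proteins that the nucleus encodes and mitochondria import. POLRMT is the single mitochondrial RNA polymerase, TFAM bends and packages mtDNA and recruits the polymerase, TFB2M opens the promoter, and TEFM keeps the polymerase elongating. POLG is the replicative DNA polymerase, Twinkle (encoded by Twnk) is the helicase that runs ahead of it, and mtSSB (encoded by Ssbp1) covers the unwound strand. LRPPRC and SLIRP form a complex that protects mitochondrial messenger RNAs from decay, and TFB1M methylates the ribosomal RNA of the small mitochondrial subunit. In muscle many of these genes are known targets of the coactivators of the PGC-1 family and of ETS and ERR family transcription factors.

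The promoters of 4 members are shown because Tefm, Twnk and Lrpprc are the members that passed an adjusted p of 0.05 between the labelled genotypes, averaged over both training states, and Tfam, the best known regulator of the set, did not pass. RefSeq promoters on GRCm38.p6 were found for all 10 genes, 11 promoters in all because Twnk has a pair of starts. Each runs from 250 bases before to 50 bases after the annotated start, 5′ to 3′ in the direction of the gene. Capitals mark a match to CCGGAAGT, the core bound by ETS factors such as GABPA, on either strand.
Tefm: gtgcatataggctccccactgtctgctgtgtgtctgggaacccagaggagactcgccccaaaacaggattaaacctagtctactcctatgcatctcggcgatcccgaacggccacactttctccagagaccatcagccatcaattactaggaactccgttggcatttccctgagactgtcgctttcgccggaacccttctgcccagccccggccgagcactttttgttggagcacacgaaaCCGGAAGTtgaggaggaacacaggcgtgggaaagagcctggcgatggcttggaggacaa
Twnk (second start): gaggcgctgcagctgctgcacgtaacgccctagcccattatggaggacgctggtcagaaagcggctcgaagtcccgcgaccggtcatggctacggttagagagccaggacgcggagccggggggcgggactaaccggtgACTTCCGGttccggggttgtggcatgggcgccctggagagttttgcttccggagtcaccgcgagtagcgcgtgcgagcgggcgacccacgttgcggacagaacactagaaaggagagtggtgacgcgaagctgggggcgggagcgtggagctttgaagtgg
Lrpprc: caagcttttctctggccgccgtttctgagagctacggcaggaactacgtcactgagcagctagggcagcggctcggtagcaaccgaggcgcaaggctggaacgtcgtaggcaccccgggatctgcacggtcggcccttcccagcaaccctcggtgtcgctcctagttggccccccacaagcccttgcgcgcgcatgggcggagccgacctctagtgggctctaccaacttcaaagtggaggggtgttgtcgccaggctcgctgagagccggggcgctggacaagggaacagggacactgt
Tfam: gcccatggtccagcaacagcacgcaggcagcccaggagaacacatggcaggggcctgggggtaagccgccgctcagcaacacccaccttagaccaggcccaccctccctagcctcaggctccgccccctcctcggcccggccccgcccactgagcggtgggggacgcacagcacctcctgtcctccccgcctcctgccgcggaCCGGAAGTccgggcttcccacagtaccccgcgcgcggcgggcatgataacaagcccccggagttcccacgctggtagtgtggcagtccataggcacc
These lie at chr11:80142104-80142403 (minus strand), chr19:45006308-45006607 (plus strand), chr17:84790737-84791036 (minus strand) and chr10:71237995-71238294 (minus strand).

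The ETS core was found in 4 of the 11 member promoters. It was at position -9 relative to the start in Tefm, -47 in Tfam, -38 in Polg and -111 on the opposite strand in Twnk (second start). Of all 32851 promoters of the same length, 3.89% hold it. Base composition differed from this background: the median GC content was 52.7% over all promoters. It was 46.7% to 70.3% in the 11 member promoters, and 55.7% (Tefm) to 70.3% (Tfam) in the 4 with the core. The part of base composition in these counts was not tested. The Lrpprc promoter holds none, and neither does the promoter of the first start of Twnk. Of the 3 members described next as higher in labelled Nrip1KO muscle, Tefm therefore holds the core, Twnk holds it at its second start only, and Lrpprc does not. Tfam and Polg hold it without having passed the test. The extended half-site of ERR factors, TCAAGGTCA, is in 0.423% of all promoters and in none of the 11, which says only that these letters are not in these windows. The NRF1 core CGCATGCGC, in 1.75% of all promoters, is in that of Tfb2m alone, at position 12. The YY1 core AAGATGGC, in 2.75%, is in that of Slirp alone, at position -85 on the opposite strand. The GC box GGGCGG, in 35.7% of all promoters, is in 7 of the 11. The TATA box letters TATAAA, in 13.6% of all promoters, are in that of Polrmt alone, far from the start at position -190. For Polg alone, the last bases of the window were in no GENCODE transcript of the gene, so its start was not matched there. Matches are descriptions of letters, and no binding was measured.

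Members were set in order by their mean level over the 12 libraries, which is comparable between genes because FPKM is per length. Tfb2m was the highest at 29.7 FPKM, followed by Lrpprc at 27.5, Ssbp1 at 24.3, Tfam at 23.8, Slirp at 18.3, Tefm at 15.2, Polg at 12.98, Twnk at 8.64, Polrmt at 8.42 and Tfb1m at 5.13 FPKM. Neighbours in this order were not always distinct. Ssbp1 exceeded Tfam in 7 of 12 libraries and Twnk exceeded Polrmt in 6 of 12, whereas Polg exceeded Twnk and Polrmt exceeded Tfb1m in all 12. Among the genes for the transcription proteins, Polrmt thus had the lowest transcript level and Tfb2m the highest. Protein levels were not measured in these data. The spread between replicates differed widely between members. The within-group SD was 4.10% of the mean for Lrpprc, 4.86% for Twnk, 6.28% for Tfam, 6.87% for Tfb2m and 7.40% for Tefm, against 25.7% for Slirp.

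All 10 members are protein-coding, and their positions are given on GRCm38 (GENCODE release M21). Lrpprc lies at chr17:84705247-84790789 (minus strand), Tefm at chr11:80136678-80142175 (minus strand), Twnk at chr19:45005663-45012762 (plus strand), Tfam at chr10:71225464-71238280 (minus strand) and Polrmt at chr10:79736123-79746581 (minus strand). The library kit does not keep strand. Exons of 4 members overlap exons of a gene on the opposite strand, by 142 bases with Tiam2 for Tfb1m, 921 bases with Fanci for Polg, 507 bases with Mrpl43 for Twnk and 3036 bases with Alkbh1 and Snw1 for Slirp, so reads there cannot be assigned to one gene with certainty. No such overlap exists for Tfam, Polrmt, Tfb2m, Tefm, Ssbp1 or Lrpprc.

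In the comparison of the labelled genotypes, Lrpprc, Tefm and Twnk were higher in labelled Nrip1KO muscle by 16.4% to 19.4% over both training states, and Tfb2m leaned the same way by 11.8% without passing the test. Tfam, Polg, Tfb1m, Ssbp1, Slirp and Polrmt gave mean differences of -3.07% to 5.52% and did not pass. Tests were made with limma on log2(FPKM + 0.5), two-sided, with Benjamini-Hochberg adjustment over the 12744 genes, and a gene was called at an adjusted p under 0.05 with a fold change above 1.2. Adjusted p-values below are from this fit.

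Lrpprc, the RNA-binding protein that stabilizes mitochondrial messenger RNAs, had the narrowest groups. In labelled Ctrl sedentary libraries it stood at 23.8, 23.8 and 24.2 FPKM (replicates 1, 2 and 3, in this order here and below), and in labelled Nrip1KO sedentary libraries at 29.5, 28.04 and 30.2. It was at 26.5, 28.9 and 25.2 FPKM in labelled Ctrl trained and at 30.5, 29.4 and 29.9 in labelled Nrip1KO trained libraries. The genotypes did not overlap in either training state, although the highest labelled Ctrl trained library exceeded the lowest labelled Nrip1KO sedentary one. The log2 difference was 0.28 in sedentary muscle (SE 0.065, adjusted p = 0.038) and 0.15 in trained muscle (adjusted p = 0.199). The sedentary difference made Lrpprc the 1 member of 10 that was called, where 3.51% of all tested genes were called and 1.92% were called higher. This call stood close to the threshold. It was lost when any of 9 of the 12 libraries was left out (adjusted p up to 0.129, without labelled Ctrl sedentary replicate 1) and in 5 other alternatives.

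Tefm, the elongation factor of the mitochondrial polymerase, was the only member whose 6 labelled Nrip1KO libraries all lay above all 6 labelled Ctrl libraries. It stood at 13.5, 15.05 and 13.002 FPKM in labelled Ctrl sedentary and 16.3, 17.8 and 15.7 in labelled Nrip1KO sedentary libraries. In trained muscle it stood at 14.99, 13.9 and 12.7 and 15.8, 16.03 and 17.997 FPKM. The log2 difference was 0.26 in sedentary and 0.26 in trained muscle, with adjusted p-values of 0.176 and 0.128. Over all genes tested, 2.97% were separated upward in this way and 3.23% downward.

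Twnk, the replicative helicase, stood at 7.59, 6.97 and 7.43 FPKM in labelled Ctrl sedentary, 9.04, 9.33 and 8.37 in labelled Nrip1KO sedentary, 8.25, 8.99 and 7.87 in labelled Ctrl trained and 9.98, 9.74 and 10.1 in labelled Nrip1KO trained libraries. The genotypes were separate within each training state, and the labelled Nrip1KO trained libraries were the highest of all 12. The log2 difference was 0.27 in sedentary muscle (adjusted p = 0.097) and 0.24 in trained muscle (adjusted p = 0.101).

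Averaged over both training states, the genotype difference passed an adjusted p of 0.05 for these 3 members, with log2 differences of 0.22 for Lrpprc (adjusted p = 0.011), 0.26 for Tefm (adjusted p = 0.026) and 0.25 for Twnk (adjusted p = 0.013). Of all tested genes, 5.56% passed upward by adjusted p alone. The fold changes of 1.16 to 1.19 were below 1.2, so 0 of the 10 members were called in this comparison, against 8.8% of all genes called in either direction and 4.9% called higher. The genotype by training interaction was near 0 for Tefm (-0.00099, 95% interval -0.28 to 0.28) and Twnk (-0.030, -0.27 to 0.21), and was -0.13 for Lrpprc (-0.33 to 0.073). For all 3 the interval reaches past the size of the averaged genotype difference at its lower end, so the data do not show that the difference was the same in both training states. The adjusted p-values of the averaged differences ran from 0.006 to 0.134 for Lrpprc, 0.013 to 0.076 for Tefm and 0.009 to 0.085 for Twnk over the alternatives. For Tefm the adjusted p rose above 0.05 when any one of 5 libraries was left out, up to 0.070 without labelled Nrip1KO trained replicate 3.

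**Figure D1:**
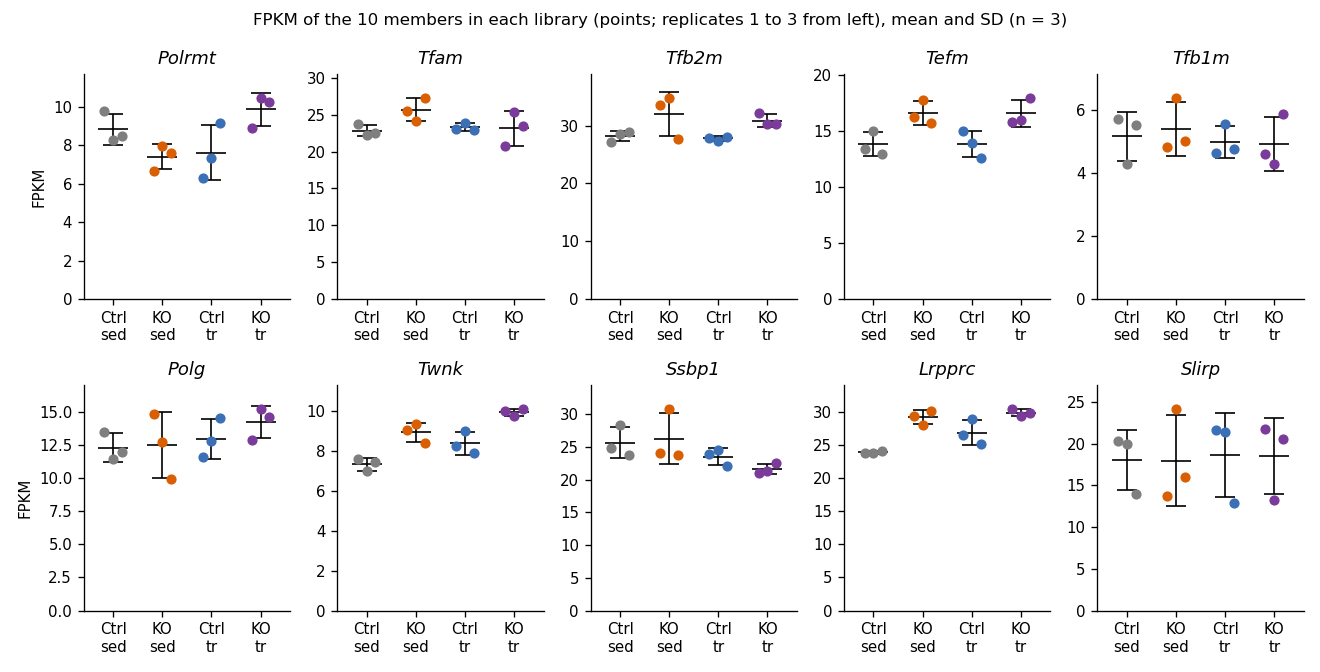
FPKM of each member (vertical axis, from 0) in the 12 libraries, as points for replicates 1 to 3 with the mean and SD of each group (n = 3). Ctrl and KO are the libraries labelled Ctrl and Nrip1KO, sed is sedentary and tr is trained. Points of Tefm, Twnk and Lrpprc under KO lie above those under Ctrl within each training state, Slirp scatters from 12.9 to 24.1 FPKM within groups, and Polrmt is lower under KO in sedentary and higher in trained muscle.

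Among the proteins that start transcription, Tfb2m, which opens the promoter, stood at 27.2, 28.5 and 28.97 FPKM in labelled Ctrl sedentary and 33.6, 34.8 and 27.7 in labelled Nrip1KO sedentary libraries, which overlapped. In trained muscle it stood at 27.9, 27.4 and 28.1 and 32.1, 30.2 and 30.2 FPKM, which did not overlap. The averaged log2 difference was 0.16 (adjusted p = 0.111). Without labelled Nrip1KO sedentary replicate 3 the adjusted p was 0.011. Over the 21 alternatives the adjusted p ran from 0.011 to 0.329, and the averaged difference passed in 2 of them and did not pass in 19.

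Tfam, the mtDNA packaging and transcription factor often used as a marker of mitochondrial biogenesis, stood at 23.7, 22.3 and 22.5 FPKM in labelled Ctrl sedentary and 25.6, 24.2 and 27.3 in labelled Nrip1KO sedentary libraries. In trained muscle it stood at 23.04, 23.9 and 22.97 and 20.7, 25.4 and 23.4 FPKM. The sedentary groups were separate and the trained groups overlapped. The log2 difference was 0.17 in sedentary muscle (95% interval -0.012 to 0.34, adjusted p = 0.345) and -0.011 in trained muscle (-0.19 to 0.17, adjusted p = 0.959). A difference of Tfam above 12.2% in trained muscle lies outside this interval.

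Polrmt, the RNA polymerase, had the widest interaction of the 10 members. Its genotype difference had opposite signs in the training states, as did those of Tfam, Tfb1m and Ssbp1. It stood at 9.74, 8.28 and 8.46 FPKM in labelled Ctrl sedentary and 6.66, 7.97 and 7.57 in labelled Nrip1KO sedentary libraries, where every labelled Nrip1KO value was below every labelled Ctrl value. In trained muscle it stood at 6.30, 7.34 and 9.13 FPKM in labelled Ctrl and 8.89, 10.45 and 10.2 in labelled Nrip1KO libraries, which overlapped. The log2 difference was -0.24 in sedentary muscle (adjusted p = 0.407) and 0.37 in trained muscle (adjusted p = 0.124). The interaction was 0.61 (95% interval 0.20 to 1.01) with an unadjusted p of 0.0068 by limma, and it did not pass over all genes (adjusted p = 0.561). No gene of the 12744 passed the interaction test, 0% called, while 989 had an unadjusted p under 0.05.

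Of the replication proteins, Polg, the DNA polymerase, stood at 13.5, 11.4 and 11.95 FPKM in labelled Ctrl sedentary, 14.8, 12.7 and 9.89 in labelled Nrip1KO sedentary, 11.5, 12.8 and 14.5 in labelled Ctrl trained and 12.9, 15.2 and 14.6 in labelled Nrip1KO trained libraries. Ssbp1, the single-strand binding protein, stood at 24.9, 28.3 and 23.7, 24.2, 30.8 and 23.8, 24.01, 24.5 and 22.1 and 21.02, 21.4 and 22.5 FPKM in the same order of groups. Groups overlapped for Polg in both training states, and for Ssbp1 the genotypes overlapped too. Neither passed in any comparison. The transcript of Twnk thus differed between the labelled genotypes by a test that those of Polg and Ssbp1 did not pass, and the difference between these genes was not tested.

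Slirp, which encodes the partner of LRPPRC, passed in no comparison. It stood at 20.4, 19.9 and 13.9 FPKM in labelled Ctrl sedentary, 13.8, 24.1 and 15.99 in labelled Nrip1KO sedentary, 21.7, 21.4 and 12.9 in labelled Ctrl trained and 21.8, 13.3 and 20.5 in labelled Nrip1KO trained libraries. The values lay at 12.9 to 15.99 FPKM in 5 libraries and at 19.9 to 24.1 in the other 7, and each group held both kinds. The 95% interval of its averaged genotype difference, -0.43 to 0.40 on the log2 scale, is wide enough to hold the difference measured for Lrpprc. Slirp is one of 1263 nuclear genes with a median transcript shorter than 700 nt, and over the 12 libraries its level had a Pearson r of 0.53 with the median deviation of these genes, given as a description. That deviation ran from -0.094 to 0.118 on the log2 scale between libraries, and its part in the Slirp values was not tested. Such an r was not particular to Slirp. It was 0.56 for Ssbp1, 0.53 for Tfb2m and 0.46 for Tefm. For the remaining members it ran from -0.23 (Tfam) to 0.37 (Tfb1m). Tfb1m, the ribosomal RNA methyltransferase, was the lowest member at 5.72, 4.28 and 5.53 FPKM in labelled Ctrl sedentary, 4.83, 6.40 and 5.01 in labelled Nrip1KO sedentary, 4.65, 5.56 and 4.76 in labelled Ctrl trained and 4.61, 4.30 and 5.89 in labelled Nrip1KO trained libraries, with overlap throughout.

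**Figure D2:**
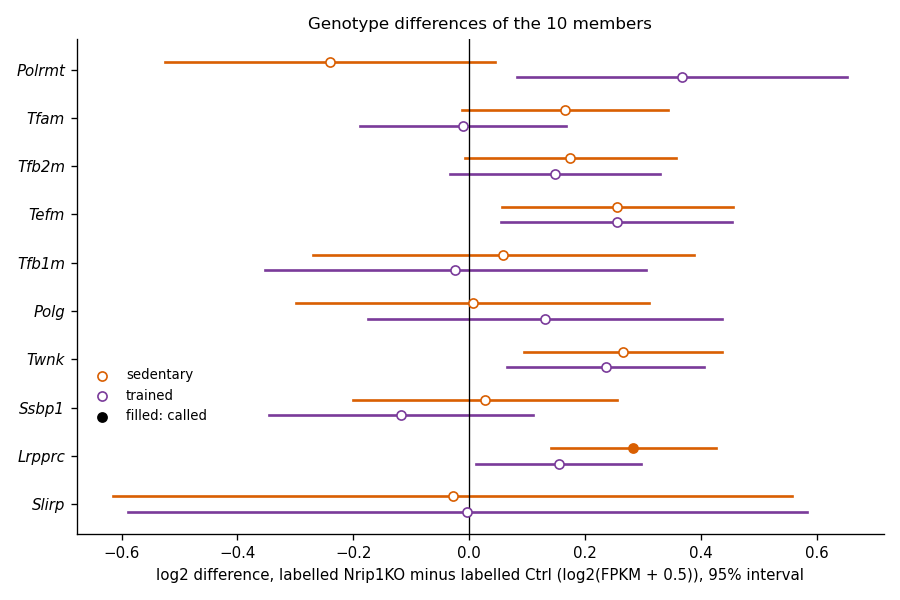
Log2 difference of each member between labelled Nrip1KO and labelled Ctrl libraries on the log2(FPKM + 0.5) scale (horizontal axis), in sedentary (orange) and trained (purple) muscle, with the 95% interval from limma. Filled circles are called. Lrpprc at 0.28 in sedentary muscle is the only filled circle, and both Polrmt circles lie on opposite sides of 0.

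Counted without a test, 4 of 10 members (Tfam, Tefm, Twnk and Lrpprc) were higher with no overlap in labelled Nrip1KO sedentary libraries, against 9.79% of all tested genes, and 1 (Polrmt) was lower, against 10.9%. In trained muscle 4 (Tfb2m, Tefm, Twnk and Lrpprc) were higher with no overlap, against 13.9% of all genes, and 0 were lower, against 13.4%. The median log2 difference of the 10 members was 0.11 in sedentary and 0.14 in trained muscle, where the medians over all tested genes were -0.0010 and 0.0066. Rescaling each library to the same sum of FPKM, of which mt- transcripts take up a large share, brought the median of all genes to -0.14 in sedentary and 0.061 in trained muscle and the members' medians to -0.037 and 0.20. Relative to all genes, the members' median stayed at 0.10 to 0.12 in sedentary and 0.12 to 0.14 in trained muscle with the deposited scaling and 3 others. In trained muscle 0 members were called, against 5.98% of all genes called and 3.21% called higher. By limma 4 members had an unadjusted p under 0.05 there, as did 2683 of all 12744 tested genes. Of the genes called, 54.8% were higher in sedentary and 53.7% in trained muscle with the deposited scaling, 18.6% and 80.9% with equal sums, and 82.7% and 75.9% with equal sums over nuclear genes.

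No member passed the test for training. In labelled Ctrl libraries 0 of 10 members were called in trained against sedentary muscle and 2, Twnk and Lrpprc, had an unadjusted p under 0.05 by limma, with log2 differences of 0.18 and 0.16. In labelled Nrip1KO libraries 0 were called and 2 had an unadjusted p under 0.05, Polrmt at 0.39 (adjusted p = 0.289) and Ssbp1 at -0.26 (adjusted p = 0.346). Of all tested genes 0% were called in each of these comparisons, so the members' count of calls is that of the background. By limma 1061 and 1544 of the 12744 tested genes had an unadjusted p under 0.05. The members' share was not tested against these. Averaged over both genotypes 0 members were called, against 0.118% of all genes. The median difference of the members was 0.014 in labelled Ctrl and 0.016 in labelled Nrip1KO libraries.

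The transcripts that this machinery makes were set beside it. The table holds the 13 protein-coding mt- genes, and the mitochondrial ribosomal RNAs were not analysed here. Summed over the 13 genes the mt- level was 440921 to 678577 FPKM per library, while the 10 members summed to 160 to 196 FPKM. The mean log2 level of the mt- transcripts was 14.53, 14.74 and 14.64 in labelled Ctrl sedentary libraries and 15.07, 15.19 and 14.92 in labelled Nrip1KO sedentary libraries. It was 14.75, 14.89 and 14.55 in labelled Ctrl trained and 14.73, 14.59 and 14.68 in labelled Nrip1KO trained libraries. The labelled Nrip1KO sedentary libraries were the highest 3 of the 12, and the other groups overlapped. The mt- share of all FPKM was 53.0% ± 0.912 (SD, n = 3) in labelled Nrip1KO sedentary libraries, 44.5% ± 1.34 in labelled Ctrl sedentary, 46.7% ± 1.91 in labelled Ctrl trained and 45.6% ± 1.13 in labelled Nrip1KO trained libraries.

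The mt- mean was 0.42 higher on the log2 scale in labelled Nrip1KO than in labelled Ctrl sedentary libraries and 0.060 lower in trained ones. By exact two-sided permutation of 3 libraries against 3 the p-values were 0.10, the smallest this design allows, and 0.60. Training in labelled Nrip1KO muscle went with a mean change of -0.39 (exact permutation p = 0.10) and in labelled Ctrl muscle with 0.091 (exact permutation p = 0.40). All 13 mt- genes had a higher mean in labelled Nrip1KO sedentary libraries, by 0.32 for mt-Co1 up to 0.68 for mt-Nd3, and 12 of 13 did so with no overlap, whereas 0 of 13 were separate in trained muscle. Of all tested genes, 9.79% were higher with no overlap in sedentary muscle. In trained muscle 13.9% were higher and 13.4% lower with no overlap. mt-Nd6, which is read from the opposite strand of mtDNA to the other 12, had a difference of 0.39. Because the library kit does not keep strand, reads there cannot be assigned to 1 strand with certainty. No single mt- gene was called, where 3.51% of all tested genes were called in sedentary and 5.98% in trained muscle. By limma all 13 had an unadjusted p under 0.05 in sedentary muscle, as did 2080 of all 12744 tested genes. In trained muscle 0 of the 13 did, against 2683 of all tested genes. The mt- genes come from shared precursor transcripts, so they are not independent.

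In sedentary muscle the mean mt- difference of 0.42 compares with 0.28 for Lrpprc, the widest of the members' upward differences. The log2 distance between the mt- mean and the mean of Polrmt, Tfam, Tfb2m and Tefm is free of the scaling of a library. It was 10.39, 10.63 and 10.56 in labelled Ctrl sedentary libraries and 10.89, 10.93 and 10.76 in labelled Nrip1KO sedentary libraries, which did not overlap. It was 10.72, 10.83 and 10.45 in labelled Ctrl trained and 10.55, 10.31 and 10.39 in labelled Nrip1KO trained libraries, which did overlap.

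**Figure D3:**
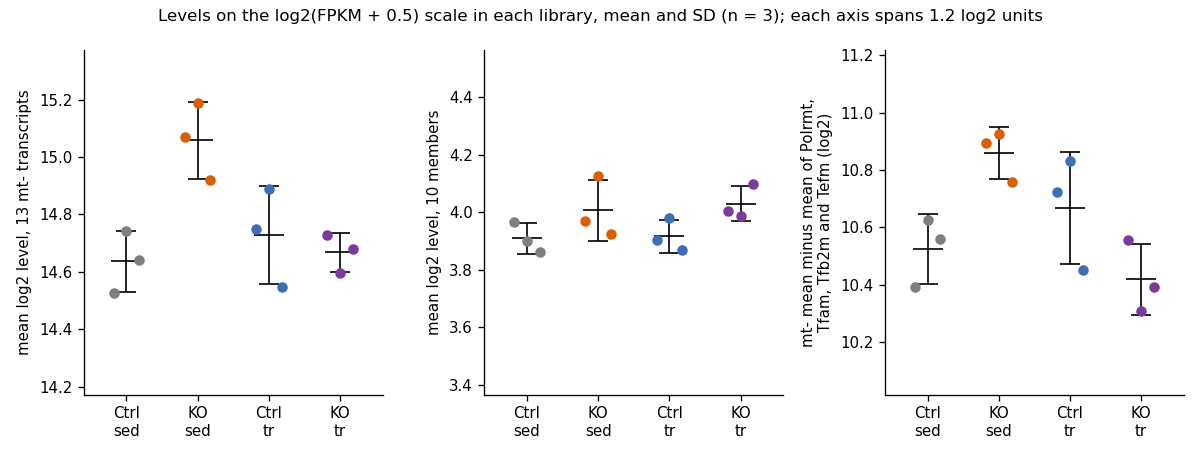
Mean log2(FPKM + 0.5) of the 13 mt- transcripts (left), of the 10 members (middle) and the distance of the mt- mean from the mean of Polrmt, Tfam, Tfb2m and Tefm (right) in each library, as points with the mean and SD of each group (n = 3). The vertical axes do not start at 0 but span the same number of log2 units. The mt- level stands out in the labelled Nrip1KO sedentary group (KO sed, 14.92 to 15.19), and the members' mean runs from 3.86 to 4.13 over all libraries.

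Over the 12 libraries, Polrmt had the lowest correlation with the mt- level. Its Pearson r with the mt- mean was -0.63 (permutation p = 0.028, adjusted over 10 members 0.139) and its Spearman rho was -0.79 (permutation p = 0.0031, adjusted 0.031), from 100000 permutations. Without the 2 libraries farthest from the median mt- level, both labelled Nrip1KO sedentary, r was -0.68, and with group means removed it was -0.54. The adjusted p of rho rose above 0.05 when any one of 6 libraries was left out, up to 0.146 without labelled Ctrl sedentary replicate 2, and under each of 3 other scalings between libraries (0.121 to 0.365). The 12 points share 4 groups and the scaling of each library. Of the other 9 members, none had an adjusted p under 0.05 for r or rho. Polg, the other member with a negative r, had -0.23, which was -0.70 without the same 2 libraries. Tfb2m had an r of 0.61 that fell to -0.15 without the same 2 libraries. In the same way Ssbp1 went from 0.58 to 0.26, Tefm from 0.56 to 0.31 and Tfam from 0.39 to 0.29. With group means removed, r was -0.47 for Tfam, 0.53 for Tfb2m, 0.63 for Tefm and 0.70 for Ssbp1.

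**Figure D4:**
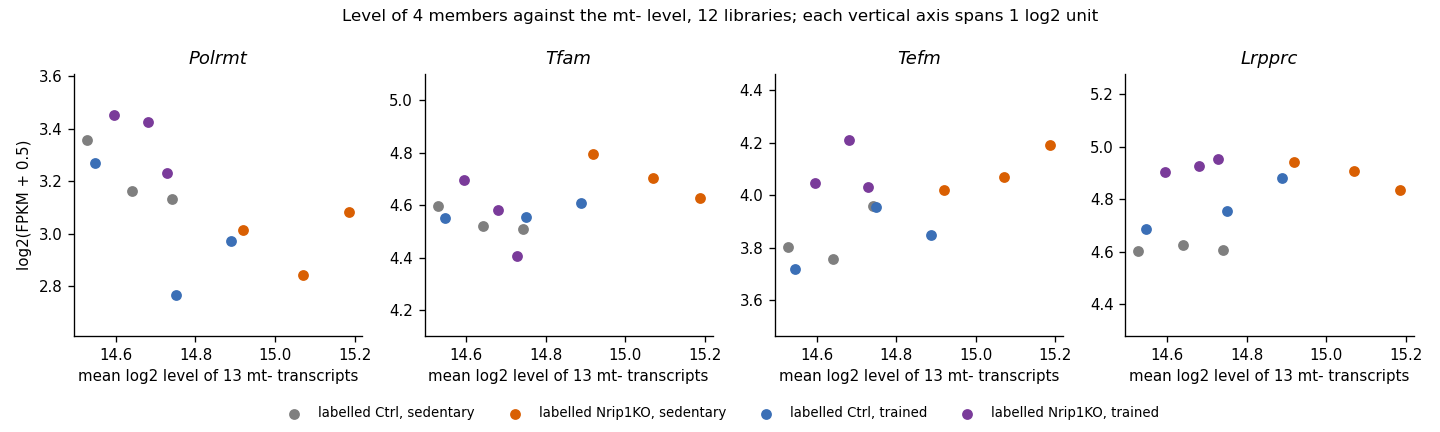
Level of Polrmt, Tfam, Tefm and Lrpprc (vertical axes, log2(FPKM + 0.5)) against the mean log2 level of the 13 mt- transcripts (horizontal axes), with 1 point per library colored by group. Polrmt falls as the mt- level rises (r of -0.63), while Tefm and Lrpprc of labelled Nrip1KO libraries lie above most labelled Ctrl libraries. The labelled Nrip1KO sedentary libraries lie at mt- levels (14.92 to 15.19) that no labelled Ctrl library reached (highest 14.89).

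Among themselves, the members did not move as a block. Over the 12 libraries Lrpprc and Twnk had the highest Pearson r of the 45 pairs, 0.89, followed by Twnk with Tefm at 0.70, Tefm with Tfb2m at 0.68 and Lrpprc with Tefm at 0.68. At the other end Ssbp1 had -0.36 with Polg and -0.35 with Twnk, and Slirp -0.36 with Tfam. The groups shape these values, and they are given as descriptions. Of 6745 other genes whose mean reached 5 FPKM, those closest to the mean of the members' standardized levels were Clpp (r = 0.92), Idh3g (0.91), Mccc1 (0.90), Msrb1 (0.90) and C1qbp (0.90). Those closest to Tfam alone were Zc3h4 (0.82), Asb15 (0.80), Abhd4 (0.80), Dhx9 (0.79) and Pacsin2 (0.78), so the sets shared no gene.

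The members work with a wider pathway, of which 106 genes were listed in 6 groups and 103 were in the table. No listed gene was called lower in any comparison and none was called in a training comparison. Counts of higher genes are for the deposited scaling, and with equal sums of FPKM they were lower in sedentary muscle in each of the 6 lists (11 of 16 for translation factors). With the deposited scaling, 6345 of all 12744 tested genes were higher in sedentary and 6501 in trained muscle. The shares of all tested genes called higher were 1.92% and 3.21%. Relative to the median of all genes, list medians moved by little: that of the translation factors was 0.18 to 0.21 in sedentary muscle over the deposited scaling and 3 others. Of 16 mitochondrial translation factors, 16 were higher in labelled Nrip1KO sedentary libraries with 2 called, and 13 were higher in trained ones with 3 called (median log2 differences 0.19 and 0.21). Gfm1, the elongation factor that moves the ribosome, was called in both states (0.35, adjusted p = 0.041, and 0.31, adjusted p = 0.049). Taco1, needed to translate mt-Co1, was called in sedentary muscle (0.28), and the elongation factors Tufm (0.40) and Tsfm (0.46) were called in trained muscle. Of 20 genes for mitochondrial aminoacyl-tRNA synthesis, 19 were higher in sedentary and 17 in trained muscle (medians 0.19 and 0.27), and 1 was called, the alanine enzyme Aars2 in trained muscle (0.48, adjusted p = 0.010).

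Of 17 RNA modification genes, 13 were higher in sedentary and 12 in trained muscle, and 1 was called, the ribosomal RNA methyltransferase Nsun4 in sedentary muscle (0.47, adjusted p = 0.027). Of 18 RNA processing and decay genes, 14 and 13 were higher. Grsf1, a protein of mitochondrial RNA granules, was called in sedentary muscle (0.27) and Tbrg4, of the FASTK family of mitochondrial RNA-binding proteins, in trained muscle (0.38). Of 21 tested replication and nucleoid genes, 11 were higher in sedentary and 14 in trained muscle. The called ones were Lonp1, the matrix protease that degrades TFAM (0.35, adjusted p = 0.010), and the nucleoid protein Atad3a (0.34, adjusted p = 0.040), both in trained muscle. Most of these calls stood near the threshold. Of the sedentary ones, those of Grsf1, Gfm1 and Taco1 were lost when any one of at least 10 of the 12 libraries was left out, and that of Nsun4 with any one of 3. Of the trained ones, that of Gfm1 was lost in the same way with any one of 11 libraries, Atad3a 9, Tbrg4 6, Tufm 5, Tsfm 5 and Lonp1 1 (adjusted p = 0.056 without labelled Nrip1KO trained replicate 3), while that of Aars2 held.

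Of the 10 upstream regulators, 8 were higher in labelled Nrip1KO sedentary libraries, and 3 were higher and 7 lower in trained ones (median log2 differences 0.12 and -0.025). With equal sums of FPKM 4 were higher in sedentary and 6 in trained muscle. Among those not called in trained muscle, Esrrg, which encodes ERR-gamma, gave -0.44 (adjusted p = 0.069) and Ppargc1a, which encodes PGC-1alpha, gave -0.40 (adjusted p = 0.090), both named after their values were seen. Esrra, which encodes the nuclear receptor ERR-alpha, was called in both states. It stood at 70.8, 71.3 and 69.8 FPKM in labelled Ctrl sedentary, 96.6, 104 and 94.05 in labelled Nrip1KO sedentary, 70.9, 74.5 and 65.1 in labelled Ctrl trained and 114, 127 and 120 in labelled Nrip1KO trained libraries. The groups were far apart, with log2 differences of 0.47 (adjusted p = 0.0042) and 0.77 (adjusted p = 1.72e-04), and both calls held without any one library. Ppargc1b, a PGC-1 family coactivator, was called in trained muscle (1.17, adjusted p = 0.034), a call lost when any one of 6 libraries was left out, with an adjusted p up to 0.127. Averaged over both training states, the genes called higher were 2 of 21 for replication and nucleoid, 3 of 18 for RNA processing, 5 of 17 for RNA modification, 4 of 16 for translation factors, 3 of 20 for aminoacyl-tRNA synthesis and 2 of 10 for upstream regulators. Of all tested genes, 4.9% were called higher in this comparison.

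**Figure D5:**
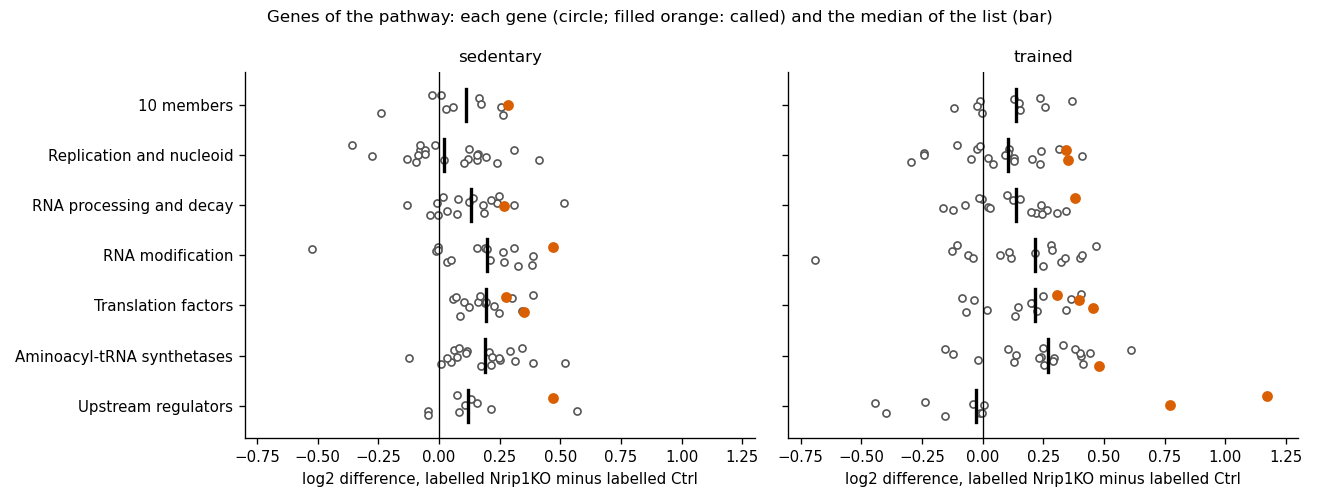
Log2 difference between labelled Nrip1KO and labelled Ctrl libraries (horizontal axis) for each tested gene of the members and of the 6 lists (rows), in sedentary (left) and trained (right) muscle. Open circles are genes not called, filled orange circles genes called, and bars list medians. With the deposited scaling all 16 translation factors lie right of 0 in sedentary muscle (11 with equal sums of FPKM), and the 2 filled upstream regulators in trained muscle are Esrra at 0.77 and Ppargc1b at 1.17.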

How the data were processed

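RNA-seq was performed on EDL muscle from 12 mice in 4 groups of 3. The sample labels gave each library's group and replicate number. Nothing in the labels ties a number to a litter or batch, so p-values measure the spread between these libraries. DNase-treated total RNA was prepared with a library kit that is not strand-specific. Per the study's methods and the submitters' processing notes, the authors quantified transcripts with Salmon 1.10.2 on mm10 and used tximport and DESeq2 1.44.0. The authors deposited FPKM values, 1 per gene and library. Fold changes of 4 comparisons were deposited as log2 values, each with an adjusted p-value from the authors, and neither was used. The annotation release and the step that gave FPKM are not given in the sources used here. Between libraries the sum of FPKM differed, from 1010773 to 1307465.

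No read counts entered the work. To estimate depth, the low values of 1613 genes with 1 annotated transcript longer than 1500 nt were used, of which 99.0% to 99.7% came within 0.15 of a whole fragment at the best scale of a library. The scale was sought below a fixed upper limit, because multiples of it also give whole numbers. A count of 3 fragments on a gene of 1 kb corresponds to 0.104 to 0.150 FPKM. This limit covers counting error only.

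FPKM is not a count, so limma 3.58.1 in R 4.3.3 was used in place of the study's DESeq2. Values were transformed to log2(FPKM + 0.5), which understates changes of low genes. The filter kept genes whose mean reached 0.5 FPKM. All 12 libraries entered 1 fit of the 4 group means, with a mean-dependent prior, which was first tested on simulated data. Genes were called at an adjusted p under 0.05 and a fold change above 1.2, the interaction by adjusted p alone. Single values per library were compared by exact permutation of library labels, with 20 arrangements for 3 against 3 and 400 for the interaction, in which training labels were permuted within a genotype. The latter is exact only where training has no effect in either genotype. Correlations used 100000 permutations. Alternatives were the pseudocount, the filter, 3 scalings, the prior, the libraries fitted, a replicate block and leaving out each library. The alternatives for the correlation and for the permutation test of the interaction were chosen after seeing the data.

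The members and lists were chosen with earlier results of these data known. Genes named beyond the members are those of the lists called in sedentary or trained muscle, at most 10 per list by smallest adjusted p, and the 5 genes nearest in pattern. The 3 listed genes without a row were not analysed here. Promoter sequences are RefSeq's on GRCm38.p6. Positions are 1-based. No pair of libraries shared more than 0.361% identical values above 0, so each counted as 1 replicate.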

Additional observations from a re-analysis of the deposited data

Results flagged for a closer look

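The mean genotype difference of the mt- level was wider in sedentary than in trained libraries. The mean log2 level of the 13 mt- transcripts differed between labelled Nrip1KO and labelled Ctrl by 0.42 in sedentary and -0.060 in trained libraries, so the difference in trained minus that in sedentary muscle was -0.48 (exact permutation p = 0.025, two-sided, 400 arrangements with training labels permuted within a genotype, smallest possible p 0.005). The mt- share of FPKM gave -9.54 percentage points for the same contrast (exact permutation p = 0.015). Under the other scalings the value was -0.26 with equal sums of FPKM (exact permutation p = 0.020), -0.53 with equal sums over nuclear genes (exact permutation p = 0.015) and -0.16 with quantile normalization (exact permutation p = 0.010). All of these permutations are exact for the absence of a training effect in both genotypes, so they do not test the interaction alone. By limma 0 of the 13 mt- genes were called for the interaction. An unadjusted p under 0.05 was found for 8 of them, and for 989 of all 12744 tested genes. Of the 10 members, Polrmt had the widest interaction, 0.61 in the opposite direction, which did not pass over all genes by limma (adjusted p = 0.561).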

How the results depend on the processing

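The 1 call among the members, Lrpprc in sedentary muscle, gave way to 0 calls with equal sums of FPKM, with equal sums over nuclear genes, with a prior not dependent on the mean, with the replicate block and with the libraries of the comparison only, and leaving out single libraries gave 0 to 1 calls. The cause was not tested. In the average over both training states 0 members were called, 3 with equal sums over nuclear genes, and 0 to 2 when single libraries were left out. In trained muscle, the training comparisons and the interaction 0 members were called under every alternative run. The number of genes called in all moved most where libraries were left out: from 447 to 164 in sedentary and from 762 to 315 in trained muscle. Training in labelled Nrip1KO muscle gave 0 called genes and 150 with equal sums of FPKM, which brought the median of all genes to 0.16 there.

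The replicate block was tried because groups share replicate numbers. Same-numbered libraries of different groups had correlations of their deviations from group means of -0.10 to 0.24, above 0.1 in 5 of 18 pairs, so the numbers were not taken to pair animals. The block changed the 1 call of Lrpprc (adjusted p = 0.062) and gave 441 called genes in sedentary muscle against 447.

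The mt- mean kept its direction in every alternative in sedentary muscle (0.26 with equal sums of FPKM, 0.22 with quantile normalization, 0.36 to 0.49 without single libraries), for training in labelled Nrip1KO muscle (-0.21 and -0.13, and -0.46 to -0.33) and in the interaction (-0.26 and -0.16, and -0.57 to -0.40). The genotype difference of the mt- mean in trained muscle, -0.060, did not keep its direction. It ran from -0.15 to 0.020 without single libraries and reached 0.056 in the other alternatives. The members' median interaction went from -0.028 to 0.19 with equal sums. Values near 0 changed sign with equal sums: Tfam with training in labelled Nrip1KO muscle (from -0.15 to 0.025), and the interactions of Tefm (0.21), Twnk (0.18) and Lrpprc (0.088). Without single libraries the interaction of Tefm ran from -0.062 to 0.056 and that of Twnk from -0.072 to 0.020. Spearman's rho of Polrmt with the mt- level was -0.71 with equal sums, -0.61 with equal nuclear sums and -0.38 with quantile normalization, and -0.82 to -0.73 without single libraries, where its adjusted permutation p rose above 0.05 in 6 of 12 cases. Every member stood at 4.28 FPKM or more in every library, above the limit that a count of 0 allows.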
